A study of Mus musculus with 14 samples.

Results

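NF-kappaB is a family of transcription factors that carries signals of tumor necrosis factor, interleukin 1 and Toll-like receptors to the nucleus. The genes described here are 10 named members of this system, found by their symbols among 52459 genes of a read count table, and all 10 were present once. They are the subunit genes Nfkb1, Nfkb2, Rela and Relb, the inhibitor genes Nfkbia, Nfkbiz and Tnfaip3, and the target genes Tnfaip2, Icam1 and Vcam1. RNA was sequenced from cells of dispersed pancreatic islets of male C57BL/6J mice aged 7 months, an inbred strain, with no further treatment or genotype named in the labels. The cells had been sorted by flow cytometry on acidic beta-galactosidase activity, a lysosomal activity used as a sign of cellular senescence. There were 7 libraries of beta-galactosidase-negative cells (negative) and 7 of beta-galactosidase-positive cells (positive), numbered 1 to 7 in both groups, and the series title places them in a study of beta cell aging. The sort was on enzyme activity and not on a cell type marker, and the labels do not say how many animals gave each library.

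In resting cells the inhibitor encoded by Nfkbia holds dimers of the subunits in the cytoplasm, and signal-driven loss of the inhibitor releases them to bind kappaB sites in DNA. Many inhibitors and subunits are themselves NF-kappaB targets, so that the response limits itself. In islets the pathway is best known from inflammation by cytokines. Icam1 and Vcam1 are known mainly from the surface of activated endothelium, where they hold passing leukocytes.

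Sequences before the start sites are shown for 5 of these genes, because targets and inhibitors of one factor are compared. RefSeq start sites (GRCm38.p6) were matched for 6 of the 10 genes, Nfkbia, Tnfaip3, Nfkb2, Rela, Tnfaip2 and Icam1, at 9 start sites in all. The 250 bases before each start were searched on both strands for the 10-base kappaB consensus. At least 1 match stood at 7.25% of all 32851 start sites in the table and at 6 of the 9 start sites of these genes. Nfkb2 holds more than 1 of these matched start sites, and by gene 4 of the 6 had a match. Capitals mark bases inside a match, and overlapping matches run together. For Nfkbia (chr12:55492648-55492772, minus strand), Tnfaip3 (chr10:19015411-19015535, minus strand) and Icam1 (chr9:21015815-21015939, plus strand) the stretch just before the start is given. For Nfkb2 (chr19:46304695-46304724, plus strand) and Tnfaip2 (chr12:111442631-111442660, plus strand), whose windows overlap exons of longer GENCODE M21 transcripts, 30 bases around a match are given. The Tnfaip3 window overlaps no exon but lies inside the GENCODE gene, which reaches to 19015657.
Nfkbia: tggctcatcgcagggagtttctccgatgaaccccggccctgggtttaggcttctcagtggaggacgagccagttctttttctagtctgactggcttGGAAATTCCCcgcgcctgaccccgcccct
Tnfaip3: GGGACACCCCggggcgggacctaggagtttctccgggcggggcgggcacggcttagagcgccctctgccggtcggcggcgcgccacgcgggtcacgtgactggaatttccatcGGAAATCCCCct
Icam1: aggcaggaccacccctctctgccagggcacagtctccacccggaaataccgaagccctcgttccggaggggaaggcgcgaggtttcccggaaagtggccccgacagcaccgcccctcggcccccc
Nfkb2: cacGGGAATTCCCCccctcggggggccgaa
Tnfaip2: attttaGGAGGGCCCCtccagggtcgggac
Strands of matches are given relative to the gene. Nfkbia, Tnfaip3 and Tnfaip2 each carried a match on the opposite strand within 30 bases of the start, the only match of Tnfaip2. Tnfaip3 also matched on both strands at −125 to −116 from the start. Nfkb2 carried overlapping matches on both strands in the bases shown. Outside them it carried 1 on its own strand at −11 to −2. The window of Icam1 held none of these letters, which says nothing about binding of the factor there. A match is a run of letters and not a tested site.

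Total counts ranged from 11060144 to 23045934 reads in negative and from 15585779 to 24577025 in positive libraries. Beta cell markers, insulin among them, summed to between 99219 and 154004 CPM (counts scaled to library size) over the 14 libraries. None of the 9 was called without the block, and 4, Ins1, Mafa, Pdx1 and Nkx6-1, were called lower with it (edgeR adjusted p = 0.0447, 0.0158, 0.028 and 0.00226), Ins1 being lower in the positive library of 7 of 7 pairs. Of 16350 genes tested by edgeR, 1047 rose and 266 fell in positive cells, and with the replicate number as a block 1930 rose and 1270 fell. Genes marking endothelial cells, macrophages, pericytes and delta cells were higher in positive libraries, and genes of acinar cells were lower. The 12 endothelial markers summed to 4.11 to 53.3 CPM in negative and 293 to 989 CPM in positive libraries, with 11 of 11 tested called higher and Cldn5 at 0 in all negative libraries. The 11 macrophage markers summed to 17.6 to 23.7 CPM and 74.4 to 615 CPM, with 11 of 11 called higher (10 with the block, without C1qa) and none at 0 in all negative libraries. Pericyte markers summed to 1.42 to 29.5 CPM and 38.4 to 118 CPM, with 5 of 6 called higher. Delta cell markers summed to 81.7 to 435 CPM and 308 to 2197 CPM, with 2 of 3 called higher. Acinar markers summed to 107 to 1063 CPM and 19.9 to 622 CPM, with 4 of 7 called lower, and 7 of 7 with the block. Positive 6 and 7 had the highest endothelial, macrophage and pericyte sums.

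The 3 genes listed as targets differed between the sorted groups, and no subunit or inhibitor was called without the block. Many inhibitors and subunits are NF-kappaB targets too, so this is no result about targets as a class. Tnfaip2, Icam1 and Vcam1 rose in positive cells by 3.09 to 4.17 on the log2 scale, by edgeR's quasi-likelihood test at a Benjamini-Hochberg adjusted p below 0.05. The 7 subunit and inhibitor genes had log2 fold changes between −0.31 and 0.27. Of the 10 genes, 3 were called in either direction (8.03% of all genes tested), 3 of them higher (6.40%) and 0 lower (1.63%). At an unadjusted p below 0.05, and by DESeq2, the counts were likewise 3 and 0. With the replicate number as a block, 5 were called (19.6% of all genes), 4 of them higher (11.8%) and 1 lower (7.77%).

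**Figure D1:**
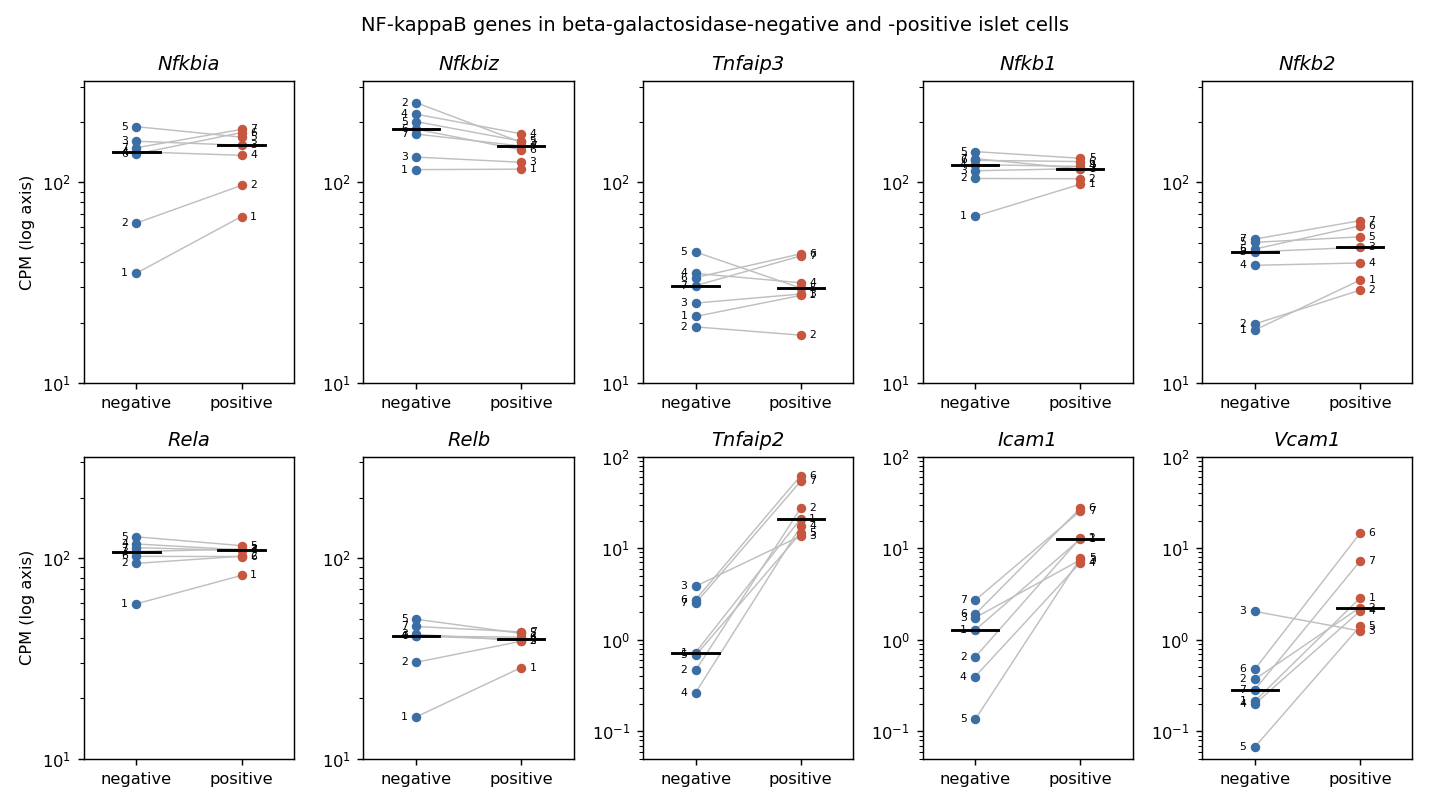
CPM of each gene in every library on log axes, negative on the left and positive on the right, with grey lines joining libraries of the same number, digits giving that number and black bars the medians. Axes run from 10 to 320 CPM for subunits and inhibitors and from 0.05 to 100 CPM for Tnfaip2, Icam1 and Vcam1. The groups overlap in every panel but those of Tnfaip2 and Icam1.

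Tnfaip2, which was first described as a gene induced by tumor necrosis factor in endothelium, is annotated by GENCODE as ENSMUSG00000021281.15 on chromosome 12, 111442469 to 111455018 (GRCm38). Its level was 0.265 CPM in the lowest, 0.726 in the median and 3.85 in the highest negative library, and 13.6, 21.1 and 62.3 CPM in the positive libraries. The highest negative library was negative 3, the highest positive ones were positive 6 and 7, and the groups did not overlap. The difference was a log2 fold change of 4.17 ± 0.57 (SE, n = 7 each, edgeR adjusted p = 0.000348), higher in the positive library of 7 of 7 pairs. Of all genes tested, 11.1% were higher in 7 of 7 pairs and 3.50% had positive libraries entirely above the negative ones.

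Icam1 encodes an immunoglobulin-type surface protein bound by the leukocyte integrins (ENSMUSG00000037405.8, chromosome 9, 21015985 to 21028817). It lay at 0.135 CPM in the lowest, 1.28 in the median and 2.71 in the highest negative library, and at 6.98, 12.6 and 27.4 CPM in positive libraries. The groups again did not overlap, and positive 6 and 7, at 27.4 and 25.5 CPM, stood above the other positive libraries, of which the next was 12.9 CPM. Its log2 fold change was 3.45 ± 0.51 (SE, n = 7 each, edgeR adjusted p = 0.000514), higher in 7 of 7 pairs.

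Vcam1, a related adhesion protein that binds the integrin chains of Itga4 and Itgb1, had the lowest level of the 10 genes per kilobase of exon (ENSMUSG00000027962.14, chromosome 3, 116109949 to 116129688). Negative libraries ranged from 0.0674 to 2.04 CPM with a median of 0.285, and positive libraries from 1.25 to 14.5 CPM with a median of 2.25. The groups overlapped through negative 3, which at 2.04 CPM, from 34 reads, exceeded positive 3 at 1.25 CPM and also positive 5. Vcam1 had a log2 fold change of 3.09 ± 0.74 (SE, n = 7 each, edgeR adjusted p = 0.0167), higher in 6 of 7 pairs. It rested on 62 reads over all negative and 575 over all positive libraries. The fold change became 4.00 without negative 3 and 2.40 without positive 6, and without the 4 libraries numbered 6 and 7 it was 1.73 and the call was lost (edgeR adjusted p = 0.244). Negative 3 also had the highest sums of fibroblast markers, 1435 CPM against 14.8 to 61.3 in the other negative libraries, and of pericyte markers, 29.5 against 1.42 to 11.5 CPM. The part of such cells in its Vcam1 level was not tested.

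**Figure D2:**
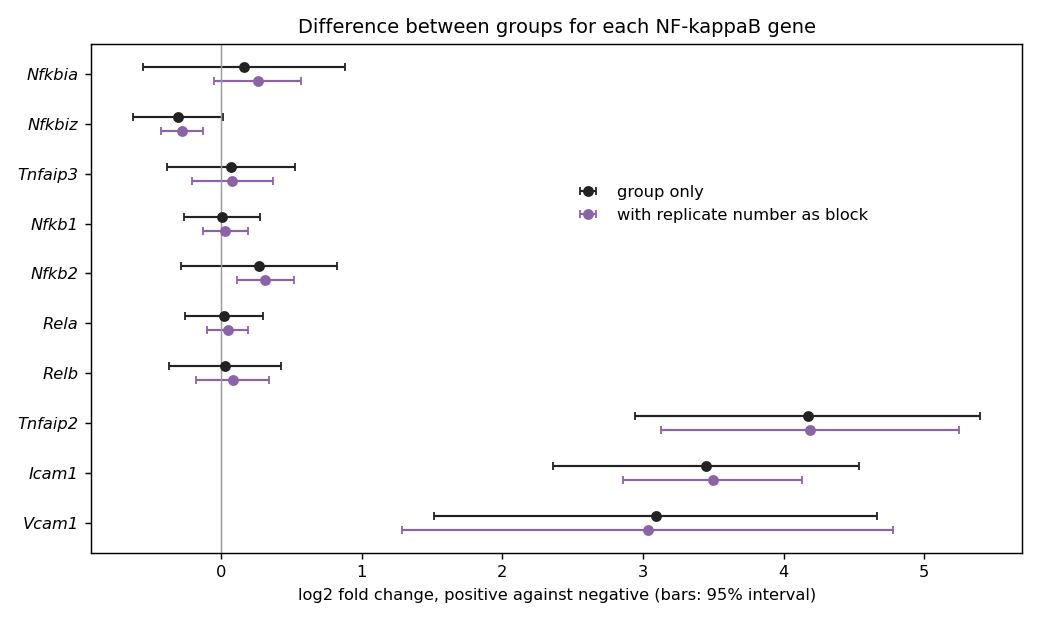
Log2 fold change of each gene, positive against negative, with 95% intervals, from the fit with group as the only term (black) and with the replicate number as a block (purple). Tnfaip2, Icam1 and Vcam1 lie between 3.03 and 4.19 in both fits, and the other 7 genes between −0.31 and 0.31.

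All 10 genes passed the filter on low counts, which asked for 0.546 CPM in at least 7 libraries. The 7 subunits and inhibitors reached it in all 14 libraries. Tnfaip2 and Icam1 reached it in 5 of 7 negative libraries and Vcam1 in 1, and all 3 in 7 of 7 positive libraries. None of these 3 genes would have passed on its negative libraries alone. Such a filter also admits genes that are high in positive libraries only, so their count supports nothing about targets as a class. Tnfaip2 and Icam1 also overlap antisense genes (Gm40578 over 314 and Gm47079 over 511 exonic bases), and with the strand setting of the counting not known, reads there could belong to either gene.

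The order of the libraries was compared between the target genes and the marker sums. Among the 7 positive libraries, Tnfaip2 and the endothelial marker sum put the libraries in the same order, from highest to lowest 6, 7, 2, 1, 4, 5 and 3. The order of Vcam1 was 6, 7, 1, 2, 4, 5 and 3, and that of Icam1 was 6, 7, 2, 1, 5, 3 and 4. The order of the macrophage sum was 6, 7, 2, 4, 1, 5 and 3, so these sums and the target genes shared their 2 highest positive libraries. The pericyte sum had the order 7, 6, 2, 1, 4, 5 and 3. Among the negative libraries the orders differed more. Tnfaip2 ran 3, 6, 7, 1, 5, 2 and 4, Vcam1 3, 6, 2, 7, 1, 4 and 5, and Icam1 7, 6, 3, 1, 2, 4 and 5. There the endothelial sum ran 6, 7, 3, 1, 2, 4 and 5, the macrophage sum 7, 6, 2, 1, 3, 5 and 4, and the pericyte sum 3, 6, 7, 1, 2, 4 and 5. Kdr, a receptor of vascular endothelial growth factor, went from 3.20 ± 4.37 to 142 ± 70.9 CPM, and Mpeg1, a pore-forming protein of macrophages, from 0.689 ± 0.733 to 71.5 ± 78.2 CPM (SD, n = 7 each), both called higher.

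Set against the summed endothelial markers of the same library, Icam1 reads came to 1.79% to 2.85% in positive and 3.28% to 20.8% in negative libraries. Tnfaip2 came to 3.83% to 6.30% and 4.60% to 44.1%, and Vcam1 to 0.314% to 1.47% and 0.601% to 23.4%. The median of this ratio was lower in positive than in negative libraries for each of the 3 genes. In negative libraries both the gene and the markers rested on few reads. Against the summed macrophage markers, Icam1 came to a median of 8.24% in positive and 6.55% in negative libraries, and Tnfaip2 to 16.7% and 3.71%. Vcam1 came to 1.49% to 2.84% in positive and 0.368% to 10.6% in negative libraries, and its median was higher in positive ones. In negative libraries C1qa, at a mean of 10.7 CPM, and Cd68, at 4.35 CPM, made up most of the macrophage sum. Lyz2, C1qb, C1qc, Adgre1, Ptprc and Tyrobp had means between 0.0534 and 0.316 CPM there. A higher ratio to this sum in positive libraries therefore does not show more target RNA per macrophage. The ratios are not corrected for gene length and were given no test. In such mixed samples, more cells of a type and more RNA per cell cannot be told apart, and the part of endothelial cells, pericytes and macrophages in the rise of the 3 genes was not tested.

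**Figure D3:**
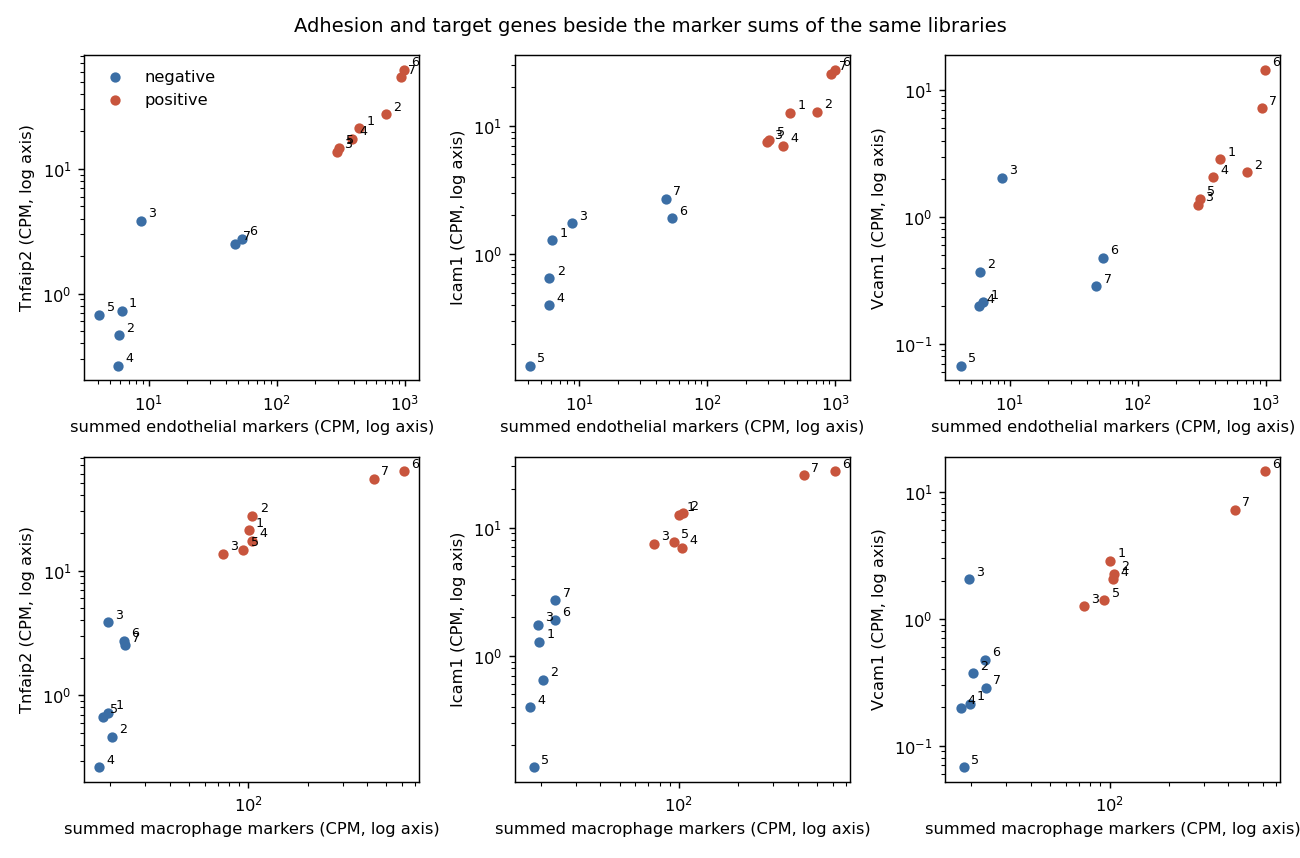
CPM of Tnfaip2, Icam1 and Vcam1 (log axes) against the summed CPM of 12 endothelial markers (top row) and 11 macrophage markers (bottom row), 1 numbered point per library. Positive libraries 6 and 7 are highest on every axis among the positive libraries, and negative 3 lies above the other negative libraries for Vcam1 and Tnfaip2.

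The subunits were compared as the DNA-binding part of the system. Rela encodes the subunit with the main activating domain (chromosome 19, 5637483 to 5648130). It stood at 59.2 CPM in the lowest, 108 in the median and 128 in the highest negative library, and at 82.1, 109 and 115 CPM in positive ones. The groups overlapped over most of their range, and the log2 fold change was 0.02 with a 95% interval of −0.26 to 0.30 (edgeR adjusted p = 0.953). Nfkb1, which encodes the precursor of its usual partner, ran from 67.8 through a median of 123 to 142 CPM in negative and from 98.0 through 117 to 132 CPM in positive libraries. Its log2 fold change was 0.01, with an interval of −0.26 to 0.28. Relb, a subunit of the alternative pathway, ran from 16.2 through 40.9 to 49.6 CPM in negative and from 28.5 through 39.4 to 42.9 CPM in positive libraries. Its log2 fold change was 0.03, with an interval of −0.37 to 0.43. A missed threshold does not show equality, and these intervals give the range of difference the libraries allow.

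Nfkb2, the precursor of the partner of the Relb protein (chromosome 19, 46304320 to 46312385), was described both by group and within pairs. Negative libraries had 18.4 CPM at the lowest, 45.1 at the median and 52.2 at the highest, and positive libraries 29.1, 47.5 and 64.5 CPM. The groups overlapped widely, yet the positive library was the higher one in 7 of 7 pairs. The log2 fold change was 0.27 ± 0.26 (SE, n = 7 each, edgeR adjusted p = 0.6). With the replicate number as a block it was 0.31 ± 0.09 and was called (edgeR adjusted p = 0.0355). Nfkb2 overlaps Psd on the opposite strand over 299 exonic bases, and the same doubt holds for reads there.

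Among the inhibitors, Nfkbia encodes the classical cytoplasmic inhibitor and is rapidly resynthesised after NF-kappaB activation (chromosome 12, 55489410 to 55492647). It spread widely within both groups, from 35.3 CPM in the lowest through 142 in the median to 190 in the highest negative library. Positive libraries ran from 67.7 through 153 to 184 CPM. The libraries numbered 1 and 2 were the lowest of their group on both sides, at 35.3 and 62.8 CPM among negative libraries and at 67.7 and 96.7 CPM among positive ones. The log2 fold change was 0.16 ± 0.33 (SE, n = 7 each, edgeR adjusted p = 0.829), higher in 4 of 7 pairs. With the block the error shrank and the value was 0.26 ± 0.13 (edgeR adjusted p = 0.215).

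Nfkbiz encodes an atypical nuclear inhibitor that also acts as a cofactor for late-induced genes (chromosome 16, 55811375 to 55838899). It went from 116 CPM in the lowest through 184 in the median to 250 in the highest negative library, and positive libraries went from 116 through 152 to 175 CPM. The groups overlapped, and positive was the higher one in 1 of 7 pairs. The log2 fold change was −0.31 ± 0.15 (SE, n = 7 each, edgeR adjusted p = 0.256). With the block it was −0.28 ± 0.07 and the gene was called lower (edgeR adjusted p = 0.0169).

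Tnfaip3 encodes A20, a ubiquitin-editing enzyme that ends signalling from receptors to the kinase complex (chromosome 10, 19000910 to 19015657). Negative libraries ran from 19.1 through a median of 30.6 to 45.1 CPM and positive libraries from 17.4 through 29.8 to 44.1 CPM. The log2 fold change was 0.07, with an interval of −0.38 to 0.53 (edgeR adjusted p = 0.892). Positive 6 and 7, at 44.1 and 43.0 CPM, were the highest positive libraries, followed by positive 4 at 31.7 CPM.

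Library number went with the level of these 7 genes. In 6 of the 7, the library with the lowest log2 CPM had the same number in both groups, and in 5 of them it was number 1. Over all genes tested the lowest library had the same number in 30.7%, and it was number 1 in 9.06%. Nfkb1 and Rela had the most similar profiles of any pair of the 10 genes. After each gene's mean was removed, their log2 CPM differed by a root mean square of 0.09 over the 14 libraries, and those of Nfkbia and Nfkb2 by 0.27.

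Levels were compared between genes as CPM per kilobase of exon, from the merged exons of GENCODE M21. Merged exons cover all annotated transcripts of a gene, 12061 bases for Nfkb1 and 3072 for Rela, and can exceed the RNA present. Before this scaling the mean of negative libraries was 116 CPM for Nfkb1 and 103 CPM for Rela. Places in the ranking therefore depend on the length used. In negative cells Nfkbia was highest at 77.9 ± 34.4 CPM per kilobase (SD, n = 7). Nfkbiz at 36.4 ± 9.31 and Rela at 33.6 ± 7.21 followed and did not differ beyond their spread. Relb at 9.76 ± 2.90, Nfkb1 at 9.62 ± 2.03 and Nfkb2 at 8.45 ± 3.08 lay lower on this scale, and their order is not resolved. Tnfaip3 lay at 4.15 ± 1.24 CPM per kilobase. Tnfaip2 at 0.322 ± 0.283 and Icam1 at 0.289 ± 0.212 were not distinct, and Vcam1 was lowest at 0.0588 ± 0.0771. In positive cells Nfkbia again led with 87.3 ± 27.1 CPM per kilobase, and Vcam1 was again last with 0.508 ± 0.547. Tnfaip2, at 6.04 ± 3.99, and Tnfaip3, at 4.37 ± 1.30, did not differ beyond their spread.

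The other genes of the pathway, 75 in all, were taken from lists by role, of which 66 could be tested. Of these 16 were called higher, 0 lower and 50 not called by edgeR, with a median log2 fold change of 0.07 against 0.00 over all genes, of which 6.40% were called higher and 1.63% lower. At an unadjusted p below 0.05 there were 18 higher and 3 lower, and DESeq2 called 18 higher and 2 lower. With the block, edgeR called 18 higher (11.8% of all genes) and 3 lower (7.77%). Among the 55 pathway genes that reached the count filter in all 7 negative libraries, 7 were called higher, and among all genes 591 of 14601 were. Without the 4 libraries numbered 6 and 7 the count of higher pathway genes was 8.

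Of the ligands, 3 of 4 tested were called higher and 5 more were too low to test. Tnf, the founding activator of the pathway, had a mean of 0.178 ± 0.172 CPM in negative and 13.3 ± 14.5 CPM in positive libraries (SD, n = 7 each). Its log2 fold change of 6.25 ± 0.90 rested on 20 negative reads. Il1a rose by 3.98 ± 0.70 on the log2 scale, also from 20 negative reads. Tnfsf13b, a survival factor of B cells, rose by 0.96 ± 0.24, and its call was lost without positive 7 (edgeR adjusted p = 0.0515). It was also lost without the 4 libraries numbered 6 and 7 (log2 fold change 0.85, edgeR adjusted p = 0.225). Il1b, the interleukin 1 form best known for harming beta cells, was at 8.71 ± 2.80 CPM in negative cells and was not called (log2 fold change 0.21, edgeR adjusted p = 0.639).

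Of 11 receptors, 4 were called higher and 7 not. With the block Ltbr was also called higher and Tnfrsf11a lower (edgeR adjusted p = 0.0447 and 0.0112). Cd14, a coreceptor of Toll-like receptors on myeloid cells, rose by 4.13 ± 0.73 on the log2 scale (SE, edgeR adjusted p = 0.00211). Tnfrsf1b, the second receptor of tumor necrosis factor, rose by 2.04 ± 0.50, Cd40 by 1.65 ± 0.40 and Tlr4 by 1.65 ± 0.45. Tnfrsf1b, Cd40 and Tlr4 lost their calls without the 4 libraries numbered 6 and 7 (edgeR adjusted p = 0.0812, 0.0511 and 0.373). The call of Tlr4 was also lost without any one of negative 1, 4, 5 or 7 or positive 2, 6 or 7. The receptors Il1r1 and Tnfrsf1a had many reads in both groups. Il1r1 stood at 568 ± 99.6 and 495 ± 147 CPM, and Tnfrsf1a at 87.2 ± 9.07 and 91.3 ± 8.36 CPM (SD, n = 7 each), and neither was called.

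Of the 25 adaptors and kinases tested, which carry the signal from receptors to the inhibitors, only Tbk1, a kinase that acts beside the main kinase complex, was called in the fit without the block. With the block Ripk1 was also called higher (edgeR adjusted p = 0.032), and Birc2 (0.0486) and Map3k14 lower. DESeq2 called Irak1 lower (log2 fold change −0.13, adjusted p = 0.0165), where edgeR did not (adjusted p = 0.132). Traf1, with 2 reads over the negative and 142 over the positive libraries, missed the count filter and was not tested. For Tbk1 the means were 51.9 ± 3.86 CPM (negative) and 59.8 ± 1.61 CPM (positive) (log2 fold change 0.21, edgeR adjusted p = 0.0222). Its call was lost without any one of negative 1, 2 or 6 or positive 6 or 7. It was also lost without the 4 libraries numbered 6 and 7 (edgeR adjusted p = 0.216), where the log2 fold change was still 0.21. The 3 parts of the main kinase complex, Chuk, Ikbkb and Ikbkg, were not called, at 0.00, 0.01 and −0.08 on the log2 scale. Map3k14, the kinase that drives processing of the Nfkb2 protein, was lower in the positive library of 7 of 7 pairs, as 6.93% of all genes tested were. Its log2 fold change was −0.37 (edgeR adjusted p = 0.484), and the block gave the call (edgeR adjusted p = 0.0041).

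The remaining subunit Rel and 4 further inhibitor-type genes, Nfkbib, Nfkbid, Nfkbie and Bcl3, were not called, with a median of −0.03. Of 8 other negative regulators 2 were called higher, the ribonuclease gene Zc3h12a (log2 fold change 1.45 ± 0.31) and Irak3, an inactive kinase of myeloid cells (1.07 ± 0.28). The call of Irak3 was lost without any one of negative 5 or positive 2, 6 or 7. Both genes lost their calls without the 4 libraries numbered 6 and 7 (log2 fold changes 0.81 and 0.80, edgeR adjusted p = 0.0791 and 0.336).

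Of 13 other targets tested, 6 were called higher. Ccl5, Cxcl2 and Cxcl10 are chemokines and rose by 6.39 ± 0.90, 5.49 ± 0.88 and 2.80 ± 0.67 on the log2 scale, and the urokinase gene Plau by 4.68 ± 0.73. The folds of Ccl5 and Cxcl2 are of uncertain size, since they rested on 10 and 35 negative reads. Ier3 had 1133 negative reads and rose by 1.53 ± 0.22, from a mean of 9.24 to 26.8 CPM (edgeR adjusted p = 0.000345). Cxcl1 rose by 2.51 ± 0.71 (edgeR adjusted p = 0.0409), from 49 negative reads, and its call held in 5 of the 14 fits without 1 library. The other 7 targets, not called, were Sod2 (log2 fold change 0.11), Gadd45b (0.08), Bcl2l1 (0.02), Csf1 (−0.03), Irf1 (−0.10), Ptgs2 (−0.35) and Il6 (2.22). DESeq2 called Il6 higher (2.24, adjusted p = 0.0305). It also called Ptgs2 higher, at 1.58 (adjusted p = 0.0335), so the sign for Ptgs2 differed between the tools. Negative libraries of Ptgs2 had a median of 2.94 CPM and a highest value of 61.5 CPM, and positive libraries a median of 7.94 CPM. The positive library was higher in 6 of 7 pairs, and the edgeR value ran from −0.68 to 1.79 when 1 library was left out.

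Other genes of leukocyte adhesion were set beside Icam1 and Vcam1. Of 9 tested 7 were called higher, where 6.40% of all genes were. Only 5 of the 9 reached the count filter in all 7 negative libraries, and 3 of these 5 were called, so the others passed through their positive libraries. Of 4 further adhesion genes of endothelium that were tested, 3 were called higher, Cd34 (log2 fold change 4.58 ± 0.48), Esam (1.93 ± 0.31) and Icam2 (0.91 ± 0.25). The call of Icam2 was lost without any one of negative 1, 4, 6 or 7 or positive 2, 3, 6 or 7. The selectins Sele and Selp, which hold rolling leukocytes, had 5 and 11 reads over the negative and 6 each over the positive libraries and were too low to test. Of the integrin genes for the partners on leukocytes, Itgax (6.38), Itgb2 (5.08), Itgal (3.13) and Itgb1 (0.36) were called higher, the last near the threshold (edgeR adjusted p = 0.049), and Itga4 (0.25) was not. The call of Itgb1 held in 4 of the 14 fits without 1 library, those without negative 3 or positive 3, 4 or 5. Icam2 and Itgb1 were also not called without the 4 libraries numbered 6 and 7 (log2 fold changes 0.75 and 0.23, edgeR adjusted p = 0.35 and 0.481).

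**Figure D4:**
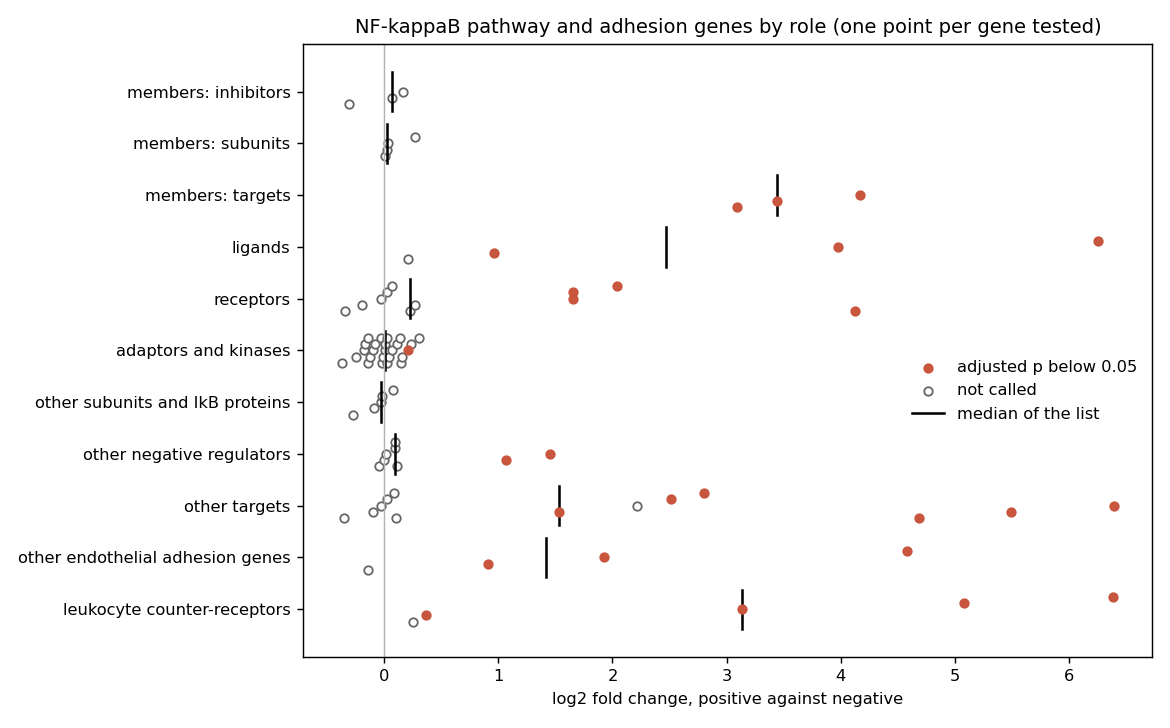
Log2 fold change of every tested gene by role, with filled points for genes called by edgeR at an adjusted p below 0.05, open points for those not called and black bars for list medians. Called genes lie mostly among targets, ligands, receptors and adhesion genes, and 24 of 25 adaptors and kinases are open points.

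Genes with the profile closest to each called target over the 14 libraries were found by the root mean square difference in centred log2 CPM. Closest to Tnfaip2 were Lamb1 (0.32), Lgals3 (0.41) and Plau (0.41), against a median of 2.43 over all genes. Closest to Icam1 were Abcc9 (0.34), Dlc1 (0.41) and Cgnl1 (0.46), against a median of 2.05. Closest to Vcam1 were Ctsc (0.50), Tgfbr2 (0.50) and Slc15a3 (0.53), against 1.79. All 9 of these genes were called higher in positive cells. The distance was taken over both groups, so genes close to a called target share its group difference, and their calls are no separate result. Ctsc lost its call without the 4 libraries numbered 6 and 7 (log2 fold change 1.78, edgeR adjusted p = 0.272).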

How the data were processed

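Total RNA of 14 libraries was sequenced after poly(A) selection and directional second-strand synthesis, per the labels' protocols. The deposited values were raw read counts per gene symbol. Subread, featureCounts and GRCm38 are named in the submitters' processing notes, and versions, annotation and strand setting are not given in the sources used here. Of 52459 genes, 31875 had a count and 16350 passed a filter of 0.546 CPM in 7 libraries. Counts were tested with edgeR 4.0.16 (R 4.3.3; TMM factors 0.969 to 1.03; quasi-likelihood test; Benjamini-Hochberg, threshold 0.05). CPM used TMM-scaled library sizes, and log2 CPM a prior count of 2. Because the labels do not tie libraries to animals, the p-values cover only differences among libraries, which may be technical. No pair of replicates agreed within sampling noise (lowest chi-square per degree of freedom 5.92). Same-numbered libraries deviated together (correlations 0.203 to 0.541; different numbers, median −0.125, highest 0.369, above the values of numbers 3 and 7), so the number was taken to pair them. The blocked fit is printed where it changed a call of a member, pathway or adhesion gene. The procedure was tested on data simulated from this comparison. Of 200 changed among 16350 genes, 54% with 1.5-fold and 73% with 2-fold changes were recovered. The changed genes were drawn from those above a cut on mean CPM, so recovery of lower genes was not measured. Simulated libraries shared no effect of replicate number. Alternatives were DESeq2 1.42.0, other scaling, no filter, the block and each library left out. The main fit and every alternative but the block used the group only, so calls in leave-out fits ignore the pairing. Named genes were the 10 members, up to 4 called genes of each list by size of change, the 2 highest endothelial and macrophage markers, and the 3 closest profiles. Uncalled genes, Ier3 and Cxcl1 were named after their values were seen. Members and lists were chosen with earlier results of these data known. Exon lengths and positions came from GENCODE M21.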

Additional observations from a re-analysis of the deposited data

Results flagged for a closer look

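In 3 of 20 groups of 7 libraries, 1 library stood apart from the others by Dixon's test at the 95% level, and chance flags about 1 in 20 groups. Rela in positive 1 was 82.1 CPM, and the next lowest positive library was 102 CPM. Relb in positive 1 was 28.5 CPM, and the next lowest was 38.6 CPM. Vcam1 in negative 3 was 2.04 CPM, and the next highest negative library was 0.475 CPM. For Rela and Relb the lowest negative library had the same number, 1.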

How the results depend on the processing

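Tnfaip2 and Icam1 kept their calls and direction under every alternative run, with log2 fold changes of 3.87 to 4.49 and 3.19 to 3.75 when 1 library was left out. Vcam1 kept its call in those fits (2.40 to 4.00). It lost its call without the 4 libraries numbered 6 and 7 (1.73, edgeR adjusted p = 0.244), an alternative chosen after seeing the data. That alternative, with fewer libraries, gave 536 genes higher and 45 lower, against 1047 and 266 in the main fit. It gave 8 pathway genes higher, and Tnfaip3 at −0.12. With the replicate block, 1930 genes were higher and 1270 lower, and of the members 4 were higher and 1 lower, the added calls being Nfkb2 (0.31) and Nfkbiz (−0.28). With the block 3 pathway genes were lower, and the block changed no other call of the 10 members. DESeq2 gave 499 genes lower and 2 pathway genes lower. Leaving out 1 library gave 825 to 1267 genes higher and 140 to 616 lower (616 without negative 3, 160 without positive 3, 140 without positive 6, 162 without positive 7). It gave 11 to 18 pathway genes higher and 0 to 3 lower. Values near 0 changed sign in such fits, with ranges of −0.013 to 0.28 for Nfkbia, −0.039 to 0.18 for Tnfaip3, −0.10 to 0.045 for Nfkb1, −0.091 to 0.063 for Rela and −0.12 to 0.089 for Relb. Without the filter Nfkb1 was at −0.012. Where a call or sign changed, the cause was not tested. Few negative reads limit the fold of Vcam1 (62), Icam1 (167) and Tnfaip2 (205).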
